A study of Rattus norvegicus with 2 samples.

Results

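Proteoglycan core proteins were followed in A7r5 cells, an established line of rat embryonic vascular smooth muscle cells, after forced expression of the glucose transporter GLUT1. The 10 genes were fixed as a list: Hspg2, Acan, Vcan, Dcn, Bgn, Lum, Sdc1, Sdc2, Sdc4 and Gpc1. Every probe set annotated with 1 of these rat symbols alone was taken, which gave 17 of the 15923 probe sets on the array. Of these genes, 6 were read by 1 probe set and 4 by several. The list was drawn up with earlier results of these data known.

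Both groups were A7r5 cells infected with an adenovirus at a multiplicity of infection of 10 (a multiplicity of 1 means 100 particles for each cell) and kept for 72 hours in medium with 5.5 mM glucose. The virus of the GLUT1 group carried the human GLUT1 cDNA, and the virus of the control group was empty, so the control carries the infection but not the transporter. RNA from 3 separate days was pooled into 1 sample per group and read on 1 array each. All cells came from 1 established line, the pools hide the spread between days, and the sources used here do not give the promoter of the transgene. Since each group had 1 array, no value below has a replicate check, a p-value or a standard error. The number of arrays limits the precision. A lower signal in a culture can come from fewer cells that express a gene or from less RNA per cell, and these arrays cannot tell them apart.

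A proteoglycan is a core protein that carries long sulfated sugar chains, the glycosaminoglycans. Syndecans span the plasma membrane and glypicans are tethered to it by a lipid anchor, and both mostly carry heparan sulfate, which holds growth factors at the cell surface. Perlecan, the product of Hspg2, is the large heparan sulfate proteoglycan of basement membranes. Aggrecan and versican bind hyaluronan and carry chondroitin sulfate, and decorin, biglycan and lumican are small leucine-rich proteins that bind collagen fibrils. In the vessel wall, versican and biglycan are known as carriers of the chains that retain lipoproteins.

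Of the 10 core protein genes, Hspg2 was higher and Acan lower on the GLUT1 array by more than 1.2-fold, and the other measured genes differed by less. Hspg2 was read at 1112 intensity units with the empty virus and 1436 with GLUT1, and Acan at 834 and 656. The 3 syndecans of the list had log2 ratios above 0 by their brightest probe sets, led by Sdc1 at 0.25. For Sdc2 the other probe set was nearly as bright and had a log2 ratio of -0.06, so its direction is not settled. Bgn and Gpc1 were nearly equal on both arrays, and Dcn and Lum were too dim for a ratio. A log2 ratio here is always GLUT1 over empty virus.

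Genes were called measured where the mean log2 intensity of both arrays was at or above the median of all probe sets, about 507 units. This left 8 of the 10 genes and 12 of the 17 probe sets. Intensities at or below 175 units, the lower quartile, were set to that floor before log2 was taken. Of the remaining 5 probe sets, 3 lay at the floor on both arrays and 2 lay between the floor and the filter. A gene's ratio came from its brightest probe set. A ratio of 1.2-fold, 0.26 on the log2 scale, was used as a mark of size only. Of 6114 measured genes, 3.70% were higher and 2.72% lower by 1.2-fold, 6.41% in all. Among the 8 measured core protein genes 1 was higher and 1 lower, and with so few genes nothing is read from this count against that background. No core protein gene differed by 2-fold, a size that 0.0164% of the measured genes reached. The median log2 ratio of these 8 genes was 0.10 (5 genes above 0 and 3 below), beside a median of 0.01 over all measured genes, of which 52.2% were above 0. When all measured probe sets of a gene were averaged, the median of the 8 genes was 0.01.

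Facts of the arrays bear on how these ratios read. Both columns of the deposited table had a median of 508 and the same quartiles, with means of 1500 and 1497 units. The rat probe set of Slc2a1, the gene of GLUT1, gave 2902 and 3121 units, a log2 ratio of 0.11. The sources used here do not say whether it binds the human transgene, so it checks no label. Within the arrays, the 702 genes with at least 2 measured probe sets gave an SD of 0.13 for a single log2 ratio, from the difference between the 2 brightest probe sets. Both probe sets of a gene read the same arrays, so this SD leaves out any spread between samples. It also pools probe sets of every brightness above the filter. The local spread named below describes how far ratios scatter at a given brightness. It is the scaled median absolute deviation over the 500 measured probe sets closest in mean log2 intensity, and it holds noise and real differences together. Intensities of different probe sets do not give an order of mRNA amounts, because probes differ in how well they bind.

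The cells carried signal for their labelled type. Of 6 smooth muscle markers on the array 5 were measured, with Acta2, the smooth muscle actin, at 16303 and 16687 units. Myh11, the smooth muscle myosin heavy chain, was dim at 227 and 228. Chondrocyte markers were listed because aggrecan is the main proteoglycan of cartilage. Of 6 such genes on the array 1 was measured, Col2a1, the cartilage collagen, at 594 and 583 units, and the summed intensity of the 6 was 1999 with the empty virus and 1971 with GLUT1. For the 6 smooth muscle genes the sums were 29348 and 30385. Summed intensities were 901 and 783 for 4 endothelial genes and 3039 and 2818 for 5 leukocyte genes. They were 6439 and 6908 for 5 epithelial genes, and 44160 and 45374 for 5 fibroblast genes. Each sum took 1 probe set per gene, the brightest with the empty virus, also where it lay under the floor. The sums give no order of the cell types. In the fibroblast list Col1a1 gave most of the signal, at 33287 and 34153 units, and Pdgfra lay at the floor on both arrays. In the epithelial list 4 genes lay at the floor on both arrays and Krt8 gave nearly all of the signal. In the leukocyte list Ptprc, its defining marker, was at the floor on both arrays, while the measured genes went opposite ways, C1qb at 1352 and 1014 units, a log2 ratio of -0.41, and Cd14 at 1235 and 1398, a log2 ratio of 0.18. Cd68, also of that list, read 323 and 249 units, under the brightness filter, a log2 ratio of -0.37. In the endothelial list only Esam was measured, at 584 and 479 units, a log2 ratio of -0.28. The part of the cell types of these lists in the ratios of the core proteins was not tested.

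**Figure D1:**
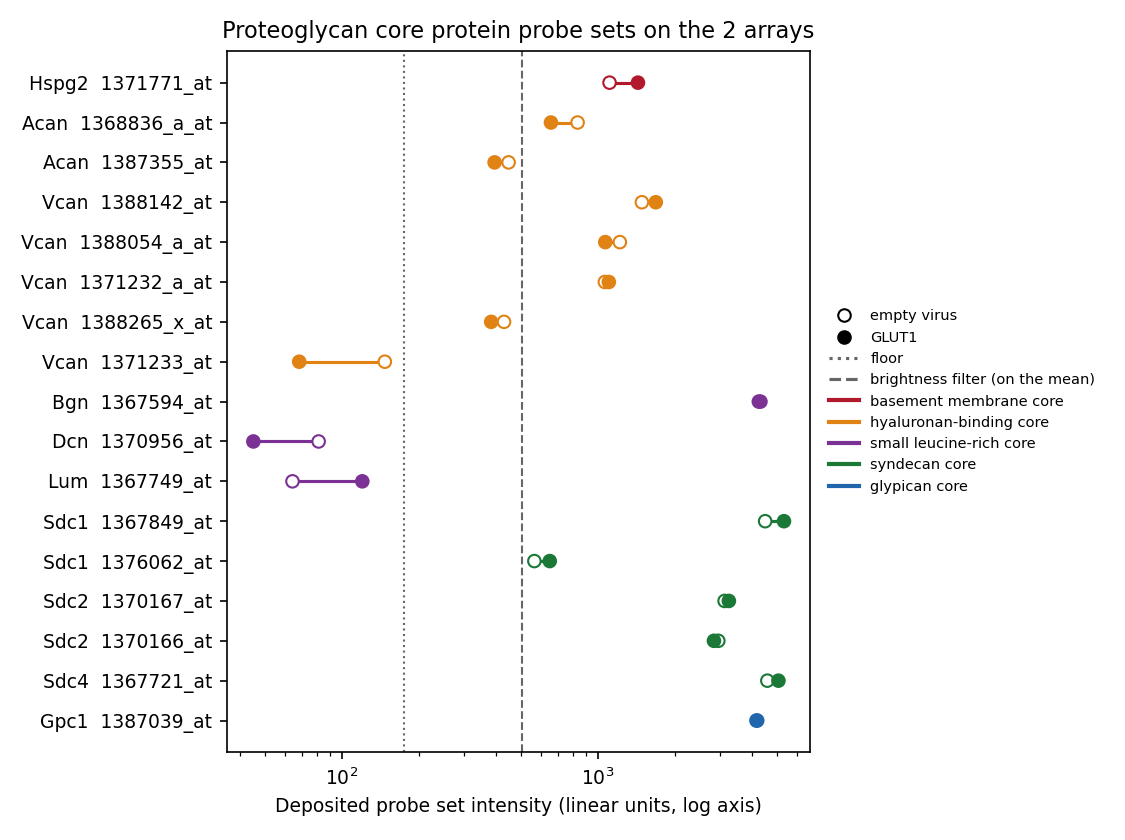
Deposited intensity (linear units on a log axis) of the 17 probe sets of the 10 core protein genes, with open points for the empty virus array, filled points for the GLUT1 array and colours for the role of the core protein. The dotted line is the floor of 175 units and the dashed line the brightness filter near 507, which applies to the mean of both arrays; Dcn, Lum and 1 Vcan probe set lie left of the floor on both arrays.

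The promoters of Hspg2 and Acan are shown because these genes had the largest log2 ratios of the list, in opposite directions. The arrays measured RNA and not the promoters, so the letters give context only. Each window, from RefSeq on build GRCr8, runs from 250 bases before to 50 after the annotated start, on the plus strand, and capitals mark GC boxes (GGGCGG on either strand, the textbook motif of Sp1 family factors). The Hspg2 window is chr5:154960596-154960895 and the Acan window is chr1:142390701-142391000.
Hspg2: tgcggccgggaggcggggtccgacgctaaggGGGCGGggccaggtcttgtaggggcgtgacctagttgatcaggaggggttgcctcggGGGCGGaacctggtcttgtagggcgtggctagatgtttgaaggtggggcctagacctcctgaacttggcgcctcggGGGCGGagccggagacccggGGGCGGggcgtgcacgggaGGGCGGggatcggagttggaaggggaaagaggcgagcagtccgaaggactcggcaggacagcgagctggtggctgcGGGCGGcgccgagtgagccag
Acan: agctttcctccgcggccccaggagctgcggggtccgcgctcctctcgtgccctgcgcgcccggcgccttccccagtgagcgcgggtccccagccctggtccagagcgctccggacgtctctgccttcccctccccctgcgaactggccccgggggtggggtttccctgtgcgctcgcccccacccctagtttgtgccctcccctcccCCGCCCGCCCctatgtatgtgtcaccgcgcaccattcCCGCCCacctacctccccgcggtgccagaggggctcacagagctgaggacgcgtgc

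The Hspg2 window held 6 GC boxes and the Acan window 3, of which 2 overlap in the Acan window. A GC box was present in 33.1% of the 33469 windows in the table. Windows were listed for 6 of the 10 genes, and those of Hspg2, Acan, Vcan, Sdc1 and Sdc4 held at least 1 GC box while that of Lum held 0. Vcan had 2 windows with 1 GC box in each. Dcn, Bgn, Sdc2 and Gpc1 had no window in this table. The letters CACGTG, the E-box that carbohydrate-responsive factors bind in pairs, were in none of the member windows and in 6.42% of all windows. Base composition was high in G and C, at 70.0% in the Hspg2 window and 73.0% in the Acan window.

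Basement membrane was represented by Hspg2, which encodes perlecan. Its probe set 1371771_at read 1112 units with the empty virus and 1436 with GLUT1. The GLUT1 value was the higher, by 1.29-fold, a log2 ratio of 0.37. The local spread there was 0.14, so the ratio amounted to 2.58 local spreads, and 99.0% of measured genes had a lower ratio. No second probe set of Hspg2 was on the array, so the ratio rests on 1 reading per group.

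Hyaluronan-binding core proteins were represented by Acan, for aggrecan, and Vcan, for versican. The brighter Acan probe set, 1368836_a_at, read 834 units with the empty virus and 656 with GLUT1, a log2 ratio of -0.35 or 1.27-fold lower. It amounted to 2.13 local spreads of 0.16, and 1.14% of measured genes had a lower ratio. The second Acan probe set, 1387355_at, read 448 and 395 units, a log2 ratio of -0.18, and lay under the brightness filter. Both were lower on the GLUT1 array, but both were designed from the same sequence record, so they are not independent readings. In the genome table Acan lies next to Hapln3, a link protein that fastens such core proteins to hyaluronan, and Vcan lies next to Hapln1, another link protein. Hapln1 read 269 and 219 units, under the filter, and Hapln3 was named by no usable probe set.

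Vcan was read by 5 probe sets, and they did not point one way. The brightest, 1388142_at, read 1488 and 1686 units, a log2 ratio of 0.18. The probe set 1388054_a_at read 1220 and 1070 units, a log2 ratio of -0.19, and 1371232_a_at read 1066 and 1105, a log2 ratio of 0.05. Versican transcripts are spliced into several isoforms, and the suffix _a marks probe sets that match more than 1 transcript of a gene. The sources used here do not say which isoforms each probe set reads. The 3 measured probe sets spanned 0.37 on the log2 scale, as wide as the ratio of Hspg2, and their mean was 0.02. Of the other Vcan probe sets, 1388265_x_at read 430 and 383 units under the filter, and 1371233_at read 147 and 68, below the floor on both arrays. No direction is therefore given for Vcan.

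Small leucine-rich proteoglycans were represented by Bgn, Dcn and Lum, for biglycan, decorin and lumican. Bgn was bright, at 4327 units with the empty virus and 4264 with GLUT1, above about 92.3% and 92.2% of probe sets on the respective arrays. Its log2 ratio was -0.02, or 0.217 local spreads of 0.092. Dcn read 81 and 45 units and Lum 64 and 120, all below the floor of 175. No ratio is given for either gene, because values at the floor have no order. Detection calls were not used here, so the low values are not a call of absence. Dcn and Lum are neighbours in the genome table, followed by Kera and Epyc, genes of the same protein family that no usable probe set named. The other measured gene of this family was Fmod, for fibromodulin, at 598 and 632 units and a log2 ratio of 0.08.

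Syndecans were represented by Sdc1, Sdc2 and Sdc4. The brighter Sdc1 probe set, 1367849_at, read 4514 units with the empty virus and 5347 with GLUT1, a log2 ratio of 0.25 or 1.19-fold. This lies just under the 1.2-fold mark and amounted to 2.68 local spreads of 0.092, since bright probe sets vary less. A second Sdc1 probe set, 1376062_at, designed from another sequence record, read 565 and 649 units, a log2 ratio of 0.20. This was 1.16 local spreads of 0.17, not far above the brightness filter. Both probe sets read the same RNA pools, so the second is not a replicate of the comparison. Both Sdc1 probe sets were higher on the GLUT1 array, and their ratios differed by 0.04, less than the SD of 0.13 for a single ratio. Sdc1 was the gene of the list with more than 1 measured probe set whose readings all pointed one way.

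Sdc4, a syndecan of focal adhesions, was read by 1 probe set at 4604 and 5087 units, a log2 ratio of 0.15 or 1.59 local spreads. Sdc2 was read by 2 probe sets from the same sequence record, with opposite signs. The first, 1370167_at, read 3133 and 3256 units, a log2 ratio of 0.06, and the second, 1370166_at, read 2961 and 2846, a log2 ratio of -0.06. The ratios differed by 0.11, and each was smaller in size than the SD of 0.13 for a single ratio. With opposite signs of that size, Sdc2 has no settled direction.

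Glypicans were represented by Gpc1, a lipid-anchored heparan sulfate proteoglycan. It read 4203 units with the empty virus and 4174 with GLUT1, a log2 ratio of -0.01 or 0.0933 local spreads. By the brightest probe sets it had the log2 ratio nearest to 0 of the 8 measured genes, where Sdc2 was nearest with averaged probe sets, and 5.86% of all measured genes had a smaller absolute ratio. Its relative Gpc6 read 587 and 481 units, a log2 ratio of -0.29.

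**Figure D2:**
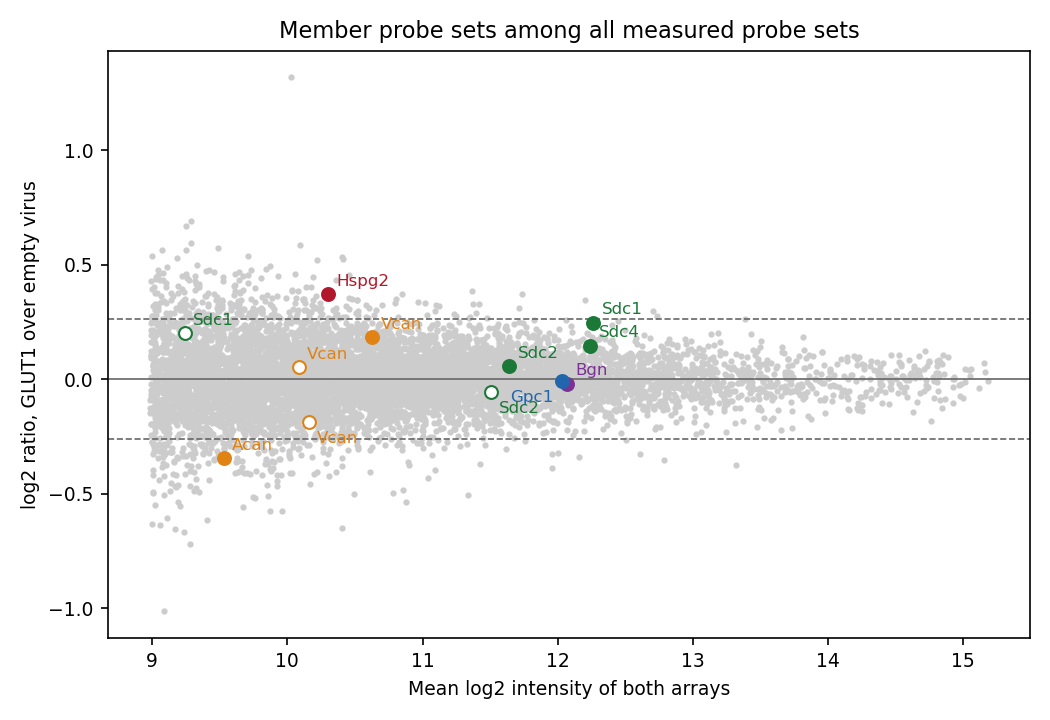
Log2 ratio of GLUT1 over empty virus against mean log2 intensity of both arrays for the 7962 measured probe sets (grey), with core protein probe sets coloured by role, filled where they stand for their gene and open for further probe sets. The dashed lines mark 1.2-fold either way. Hspg2 lies above and Acan below them, and Sdc1 at 0.25 lies just under the upper line.

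The 4 cell-surface genes, Sdc1, Sdc2, Sdc4 and Gpc1, were all measured and had a median log2 ratio of 0.10. The 4 measured of 6 extracellular genes, Hspg2, Vcan, Bgn and Acan, had a median of 0.08. The medians differed by 0.02, and by 0.08 with averaged probe sets, and this difference was not tested. Cell-surface ratios spanned 0.25 on the log2 scale and extracellular ratios 0.72, from Acan to Hspg2. The probe sets of Acan and Hspg2 were dimmer than those that stood for the cell-surface genes, and the local spread was wider there, at 0.14 for Hspg2 and 0.16 for Acan beside 0.091 to 0.10 for Sdc1, Sdc2, Sdc4 and Gpc1.

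The genes that build, bind and cleave proteoglycans were taken from 7 lists of 124 genes in all, of which 85 were on the array and 42 were measured. Their median log2 ratio was 0.00, and 20 lay above 0 and 22 below. By the 1.2-fold mark 1 was higher and 2 were lower, beside the 3.70% and 2.72% of all measured genes. None reached 2-fold.

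Of 22 other core proteins and receptors with glycosaminoglycan chains on the array, 5 were measured, with a median log2 ratio of 0.02. Gpc6 was the lowest and past 1.2-fold, and Fmod was the highest. The Gpc6 probe set lay not far above the brightness filter, and its ratio amounted to 1.37 local spreads of 0.21. Agrn, for agrin, a basement membrane heparan sulfate proteoglycan like perlecan, read 2993 and 3086 units, a log2 ratio of 0.05. Col18a1, a basement membrane collagen that carries heparan sulfate, had a log2 ratio of -0.20 by its measured probe set. Its other probe set, under the filter at 282 and 294 units, had a log2 ratio of 0.06. Of the 3 measured basement membrane cores, Hspg2 alone was past 1.2-fold, beside 6.41% of all measured genes. With so few genes nothing is read from this count, and the difference between them was not tested. In the hyaluronan list 2 of 8 genes were measured, the hyaluronan receptor Hmmr at 0.16 and the hyaluronidase Hyal2 at 0.07. A second measured Hmmr probe set, 1370461_at, had the opposite sign, at 1562 and 1499 units, a log2 ratio of -0.06.

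All glycosaminoglycan chains except hyaluronan and keratan sulfate start from a linker sugar chain built on the core protein. Of 12 genes for the linker and the precursors, 9 were measured, with a median log2 ratio of 0.00. B3gat3, the enzyme that adds the last sugar of the linker, read 770 and 955 units, a log2 ratio of 0.31, the highest of the list and past 1.2-fold. This was 1.93 local spreads of 0.16. Ugp2, which makes UDP-glucose, was the lowest, at -0.06. The xylosyltransferase gene Xylt2, which starts the chain, had log2 ratios of 0.18 and 0.06 in its measured probe sets. Another Xylt2 probe set, 1369723_at, under the filter at 383 and 328 units, had the opposite sign, a log2 ratio of -0.22.

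Of 13 genes for heparan sulfate chains, 8 were measured, with a median log2 ratio of -0.01 and 0 past 1.2-fold. Ndst2 was the highest at 0.10 and Ndst1 the lowest at -0.17, both N-deacetylase/N-sulfotransferases, and the chain polymerases Ext1 and Ext2 had log2 ratios of 0.07 and 0.01. Of 7 genes for chondroitin and dermatan sulfate chains, 5 were measured, with a median of -0.06. Chpf2, a chondroitin polymerising factor, read 793 and 620 units, a log2 ratio of -0.35 or 2.02 local spreads of 0.18, the lowest of the list and past 1.2-fold. Its relative Chpf read 3647 and 4111 units, a log2 ratio of 0.17, the highest of the list.

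Of 13 proteases and sheddases that cut core proteins, 6 were measured, with a median log2 ratio of -0.04 and 0 past 1.2-fold. Adamts9, a versican- and aggrecan-cleaving protease, was the highest at 0.11, and Mmp14, a membrane-bound metalloproteinase, the lowest at -0.13. Of 10 partners of syndecans and glypicans, 7 were measured, with a median of 0.01 and 0 past 1.2-fold. Prkca, the kinase that binds the tail of syndecan-4, was the highest at 0.25, and Hbegf, a heparin-binding growth factor, the lowest at -0.20. The adaptor Sdcbp, or syntenin, which binds syndecan tails, read 10844 and 11643 units, a log2 ratio of 0.10.

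**Figure D3:**
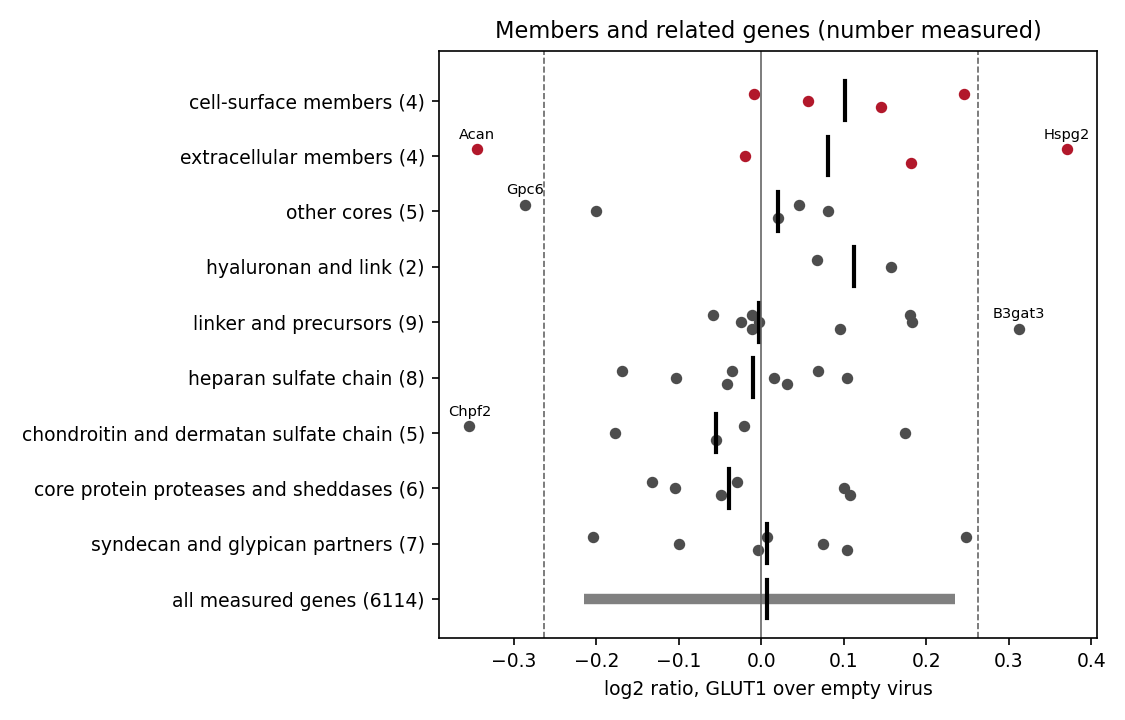
Log2 ratio of GLUT1 over empty virus for each measured gene (points, by the brightest probe set) in the core protein groups (red) and in the 7 related lists (grey), with black ticks for medians and the number measured in brackets. The grey bar spans the 5th to 95th percentile of all 6114 measured genes, from -0.21 to 0.23, and the dashed lines mark 1.2-fold; Hspg2, Acan, Gpc6, B3gat3 and Chpf2 lie past them.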

How the data were processed

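RNA of 1 pool per group was labelled with biotin from 5 µg of total RNA and read on 1 array, per the labels' protocols. The deposited table gives a linear intensity per probe set and array in whole numbers, of which 3.01% and 3.04% were at or below 0. The sources used here do not say how the authors summarised, corrected and normalised these intensities. Both arrays had the same median and quartiles, so these values may not show a change in total mRNA.

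Gene names came from GEO's platform annotation and were updated by gene ID in RefSeq's rat table (GRCr8). It gave 1 gene for 12783 probe sets and several for 312, and 12748 of the former matched. The 57 manufacturer's controls were left out of gene counts. The GLUT1 array was scaled to a median log2 ratio of 0 over probe sets brighter than the median, a shift of -0.0013, then floored at the 25th percentile and put on the log2 scale (Python 3.11.15, pandas 2.3.3, numpy 2.4.6). The steps were tested on simulated data with the same noise at every brightness, unlike the real arrays. That checks the arithmetic only and not how far real ratios scatter. Members, lists and the 1.2-fold mark were chosen with earlier results of these data known. Named genes were all 10 members and, in each related list, the highest, the lowest and those past 1.2-fold; others named were chosen after their values were seen. Alternatives were other floors, filters, scalings, folds and averaging of probe sets.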

Additional observations from a re-analysis of the deposited data

How the results depend on the processing

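With 1 array in each group, neither a paired analysis nor leaving out a replicate could be done. Of 170 values recomputed under the alternatives, 139 stayed within the limits set (an SD of 0.13 for a log2 ratio, 1.5 times for a count), 31 moved and 0 changed direction while past 1.2-fold. The count of 2 core protein genes past 1.2-fold, 1 higher and 1 lower, became 0 in each direction at 1.3-fold, at 1.5-fold and at 2-fold. Of all measured genes, 0.0164% were past 2-fold. Raising the brightness filter to the 75th percentile also gave 0, since Hspg2 and Acan are then too dim to count. The 3 related genes past 1.2-fold became 13 of 73 with no filter, where 14.5% of all 8713 genes were past 1.2-fold, and 0 with the filter at the 75th percentile, at 1.5-fold and at 2-fold. The shares of all genes past 1.3-fold, past 1.5-fold and with the raised filter are not given here. Nothing is therefore read from the counts of 0, for core protein genes or related genes. Where measured, Hspg2 kept a log2 ratio between 0.368 and 0.370, Acan between -0.348 and -0.345, and Sdc1 between 0.223 and 0.247. Both arrays already had the same median and quartiles, so other scalings say little about stability. Floors at the 10th and 40th percentiles changed none of the values, so they say little about it either. The 139 values that stayed within the limits include those from other floors and scalings. Averaging probe sets brought Vcan from 0.18 to 0.02. Depth of signal limits Dcn and Lum, which lay below the floor.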

Other observations

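Some relatives of the core proteins lay under the brightness filter and differed more in size, and they were chosen after their values were seen. Sdc3, the syndecan best known from neural tissue, was read by 3 probe sets that disagreed. The first, 1372180_at, fell just short of the filter at 629 units with the empty virus and 378 with GLUT1, a log2 ratio of -0.73. The second, 1368581_at, read 210 and 454 units, a log2 ratio of 1.11, and the third, 1368580_at, read 258 and 161, the latter below the floor. Probe sets of this brightness thus gave ratios of opposite sign for the same gene.

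Chst3, a chondroitin 6-sulfotransferase, read 446 and 238 units, a log2 ratio of -0.90, by its only probe set. Bcan, for brevican, a hyaluronan-binding core protein of brain, had a log2 ratio of -0.62 in 1369831_at, at 457 and 298 units, and -0.03 in 1387934_at, at 333 and 325. The hyaluronidase gene Hyal3 read 389 and 596 units, a log2 ratio of 0.62. None of these ratios has a replicate check.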
